A study of Mus musculus with 12 samples.

Results

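The genes of the circadian clock were examined in whole mouse hearts after acute myocardial infarction (AMI). The set held 10 genes, Arntl, Clock, Npas2, Per1, Per2, Per3, Cry1, Nr1d1, Nr1d2 and Dbp, taken by symbol from the 53801 genes of the deposited tables. All 10 were among the 15306 genes that passed the filter on low counts. Bulk RNA-seq had been run on 12 hearts of adult male wild-type C57BL/6N mice, 4 per group. Sham hearts (labelled Sham) came from mice that had undergone the sham operation. The hearts called day 1 AMI and day 7 AMI came from mice whose left anterior descending coronary artery (LAD) had been tied off permanently under isoflurane anesthesia 1 day or 7 days earlier, labelled MI (Day 1) and MI (Day 7). Each library was made from the heart as a whole, so infarcted and remote muscle and the cells that had entered them were read together. The hour of day at which hearts were taken, the light cycle, and the day after surgery on which sham hearts were taken are not given in the sources used here.

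The mammalian clock is a transcriptional loop that turns about once a day in nearly every cell, cardiomyocytes included. ARNTL (BMAL1) pairs with CLOCK or its relative NPAS2, binds E-box motifs and drives the Per and Cry genes, the Nr1d genes and Dbp. PER and CRY proteins then block ARNTL and CLOCK, while the nuclear receptors REV-ERBα and REV-ERBβ, encoded by Nr1d1 and Nr1d2, repress Arntl through ROR elements (ROREs). DBP, a PAR bZIP factor, acts on D-box motifs such as those of Per3. In mouse tissues Arntl, Npas2 and, less strongly, Clock therefore peak near the time at which Dbp, Nr1d1 and the Per genes are low. Cry1 is driven through E-boxes and also held back by REV-ERB, and peaks late with Arntl. In what follows Arntl, Clock, Npas2 and Cry1 are called the Arntl arm and the other 6 genes the Dbp arm, a split taken from this background and not from the data.

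The motifs through which the loop acts are shown here for the members that hold them near a start site. RefSeq promoter windows (GRCm38.p6, 250 bases before to 50 after a start site) were found for 9 of the 10 genes, Per2 having no entry, and were searched on both strands for the E-box CACGTG, the D-boxes TTATGTAA and TTACGTAA and the RORE ANTAGGTCA. The E-box occurred in 2 of the 9 genes and in 7.15% of 32851 promoters, the D-box in 1 of the 9 and in 1.06%, and the RORE in 1 of the 9 and in 0.661%. A gene was counted if any of its windows held the motif, and Arntl, Clock and Per1 had several windows. The 32851 promoters were counted singly, so the shares are of unlike units and cannot be compared directly. Each stretch is given 5′ to 3′ on its gene's strand with the motif in capitals.
Arntl, RORE, chr7:113207528-113207557 (+), within an exon of Arntl in GENCODE M21: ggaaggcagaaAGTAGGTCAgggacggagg
Per3, 2 D-boxes, chr4:151044784-151044903 (−), upstream of the gene: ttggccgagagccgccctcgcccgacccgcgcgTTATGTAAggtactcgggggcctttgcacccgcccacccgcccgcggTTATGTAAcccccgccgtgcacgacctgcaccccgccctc
Per1, E-box, chr11:69098756-69098815 (+), inside the gene's span but outside its exons: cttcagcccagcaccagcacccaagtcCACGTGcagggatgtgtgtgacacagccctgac
Cry1, E-box, chr10:85185082-85185141 (−), upstream of the gene: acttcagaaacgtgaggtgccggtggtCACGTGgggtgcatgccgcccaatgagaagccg
A match is only a run of letters, and a window without one says nothing about the factor. Dbp, Nr1d1, Nr1d2, Clock and Npas2 had no match in these windows.

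Libraries held 23204551 to 32166517 counts. Reads of the mitochondrial genome made up 17.9% to 27.4% of counts in sham hearts, 12.1% to 15.9% in day 1 AMI hearts and 13.2% to 19.2% in day 7 AMI hearts. No pair of libraries within a group agreed within sampling noise, the smallest chi-square per degree of freedom being 8.84. The labelled tissue was borne out by cardiomyocyte markers, with 10 of 10 tested and a summed level of 92701 to 106797 CPM (counts scaled to library size) in sham hearts, 56802 to 70112 in day 1 AMI hearts and 47124 to 54907 in day 7 AMI hearts. In bulk RNA, fewer cells of a type and less RNA per cell cannot be told apart, which holds for every value below.

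On the TPM scale, which allows for transcript length, the output gene Dbp and the receptor gene Nr1d1 were the most abundant of the 10. In sham hearts Dbp stood at 95.1 ± 61.4 TPM (SD, n = 4) and Nr1d1 at 72.0 ± 25.4 TPM, a difference within the spread. Nr1d2 followed at 37.8 ± 8.95 TPM, at the edge of the spread of Nr1d1, and Per1 at 18.1 ± 5.32 TPM. Per3 at 8.30 ± 3.89, Clock at 7.81 ± 2.12, Per2 at 5.26 ± 2.51, Arntl at 4.42 ± 2.72 and Cry1 at 3.67 ± 0.555 TPM did not differ from their neighbours in this order beyond the SD. Npas2 was lowest, at 1.09 ± 0.485 TPM.

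**Figure D1:**
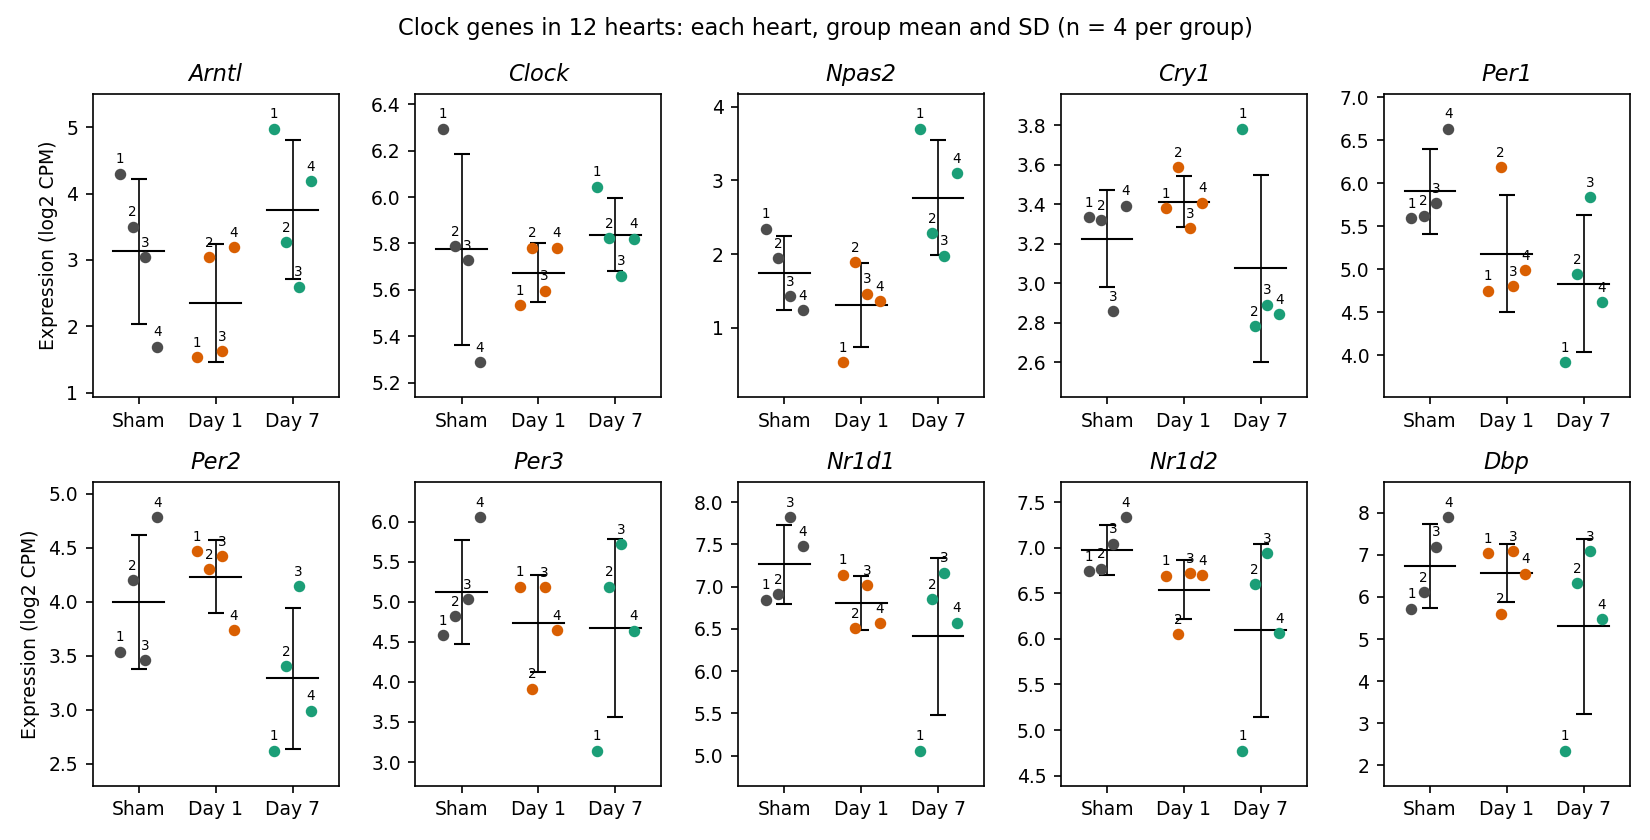
Expression of the 10 clock genes in log2 CPM (TMM-scaled) in each heart, 1 panel per gene, with the heart's replicate number above its point. Horizontal lines are group means and bars the SD (n = 4). Day 7 AMI heart 1 is the highest of its group in Arntl, Clock, Npas2 and Cry1 and the lowest in the 6 genes from Per1 to Dbp.

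Arntl, the factor without which the loop stops, differed widely between hearts of the same group. Sham hearts 1 to 4 had 19.7, 11.3, 8.15 and 3.16 CPM. Day 1 AMI hearts had 2.83, 8.15, 3.01 and 9.08 CPM, and day 7 AMI hearts 31.5, 9.58, 5.98 and 18.1 CPM. The 3 groups overlapped in every pairing, and the lowest and highest sham hearts were as far apart as 2.61 on the log2 scale.

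Dbp ran the other way. Sham hearts 1 to 4 had 52.6, 69.3, 146 and 239 CPM and day 1 AMI hearts 131, 48.5, 135 and 93.8 CPM. Day 7 AMI hearts had 5.02, 79.8, 136 and 44.5 CPM. The single value of 5.02 CPM in day 7 AMI heart 1 lay far below the other 11 hearts, and it was the heart with the most Arntl. The log2 CPM of Dbp minus that of Arntl, a compact reading of both arms, was 1.42, 2.62, 4.15 and 6.21 in sham hearts 1 to 4, 5.50, 2.56, 5.46 and 3.36 in day 1 AMI hearts, and −2.63, 3.05, 4.49 and 1.29 in day 7 AMI hearts. The 3 groups overlapped in this reading, and day 7 AMI heart 1 was the only heart with less Dbp than Arntl.

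Among the partners of ARNTL, Npas2 had 5.01, 3.78, 2.62 and 2.30 CPM in sham hearts 1 to 4, 1.38, 3.64, 2.68 and 2.49 CPM in day 1 AMI hearts and 12.9, 4.79, 3.87 and 8.47 CPM in day 7 AMI hearts. Every day 7 AMI heart was above every day 1 AMI heart, and day 7 AMI and sham hearts overlapped. Clock was steady by comparison, at 39.0 to 78.5 CPM in sham, 46.3 to 55.0 CPM in day 1 AMI and 50.5 to 65.9 CPM in day 7 AMI hearts.

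Of the repressor genes, Per1, the member that also answers directly to glucocorticoid and stress signals, had 48.1, 49.2, 54.4 and 99.5 CPM in sham hearts 1 to 4, 26.8, 72.7, 27.8 and 31.7 CPM in day 1 AMI hearts and 15.04, 30.7, 57.1 and 24.4 CPM in day 7 AMI hearts. In each group a single heart stood high, sham heart 4, day 1 AMI heart 2 and day 7 AMI heart 3. Per2 had 11.5, 18.3, 10.9 and 27.4 CPM in sham, 22.1, 19.6, 21.3 and 13.2 CPM in day 1 AMI and 6.07, 10.5, 17.6 and 7.86 CPM in day 7 AMI hearts, so that 3 of the 4 day 7 AMI hearts lay below all the other 8. Per3 ranged from 23.9 to 66.5 CPM in sham, from 14.98 to 36.3 CPM in day 1 AMI and from 8.75 to 52.4 CPM in day 7 AMI hearts. Cry1 stayed between 6.80 and 13.7 CPM in all 12 hearts.

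The REV-ERB gene Nr1d1 had 115, 120, 227 and 178 CPM in sham hearts 1 to 4, 141, 91.0, 129 and 94.7 CPM in day 1 AMI hearts and 33.3, 115, 143 and 94.99 CPM in day 7 AMI hearts. Nr1d2 had 107, 109, 132 and 162 CPM in sham hearts, 103, 66.3, 106 and 104 CPM in day 1 AMI hearts and 27.3, 96.9, 123 and 66.8 CPM in day 7 AMI hearts. In CPM the 4 day 1 AMI hearts all lay below the 4 sham hearts in Nr1d2, by a narrow margin, whereas Nr1d1 overlapped. In TPM the 2 groups overlapped in Nr1d2 too, at 25.9 to 46.9 in sham and 26.1 to 41.7 in day 1 AMI hearts. On the log2(TPM + 1) scale the median log2 fold change of all genes on day 1 was 0.233. Exons of Nr1d1 share 8.55% of their bases with Thra on the opposite strand and those of Dbp 18.01% with Sphk2, and whether counting used strand is not stated, so a part of these counts could belong to the partner.

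The first question was whether the clock genes as a group moved with infarction. On day 1 none passed the test. Against sham hearts, 0 of the 10 were higher and 0 lower with the edgeR quasi-likelihood test at an adjusted p under 0.05, and 0 had an unadjusted p under 0.05. In the same comparison 41.8% of all genes tested were called. With the study's added requirement of a 2-fold change the 10 genes gave 0 and 0, against 7.79% of all genes higher and 2.98% lower. DESeq2 fitted to all 12 hearts called 0, limma on TPM values 0, and DESeq2 fitted to these 2 groups alone called Nr1d2, lower by a log2 fold change of −0.43 (adjusted p = 0.0414). On the log2 CPM scale hearts of the groups did not overlap in 1 of the 10 genes, as against 36.7% of all genes. That gene was Nr1d2 (exact permutation p = 0.0286, the smallest that 4 against 4 hearts allow). The median log2 fold change of the 10 was −0.42 and that of all genes −0.012.

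The intervals left room for sizable differences. The log2 fold change of Arntl on day 1 was −0.86 (SE 0.57, 95% interval −2.07 to 0.36) and that of Dbp −0.31 (SE 0.66, −1.73 to 1.11). The interval for Clock ran from −0.48 to 0.20 and that for Cry1 from −0.26 to 0.61. A difference of 2-fold was thus outside the interval for Clock and Cry1 and inside it for Arntl and Dbp. Without day 1 AMI heart 2, its highest heart, Per1 was lower than in sham hearts by a log2 fold change of −1.12 (edgeR adjusted p = 0.0306), against −0.66 with all hearts (adjusted p = 0.197).

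On day 7 Npas2 was higher and Per1 lower than in sham hearts, and the other 8 genes did not pass the test. Npas2 rose 2.21-fold (log2 fold change 1.14, SE 0.38, edgeR adjusted p = 0.0171) and Per1 fell to 0.506 of the sham level (log2 fold change −0.98, SE 0.40, edgeR adjusted p = 0.0454). By the exact permutation test neither passed, with p = 0.114 for each. These were 2 of 10 genes, whereas 59.3% of all genes were called, 30.9% as higher and 28.4% as lower. With a 2-fold change required, 1 was higher (Npas2) and 0 lower, against 15.3% and 5.88% of all genes. Per2, Nr1d1 and Nr1d2 had log2 fold changes of −0.70, −0.73 and −0.70 with unadjusted p-values just under the threshold and edgeR adjusted p-values of 0.0786, 0.0778 and 0.0757. Hearts overlapped in all 10 genes, while they did not in 53% of all genes. The median log2 fold change was −0.51 over the 10 genes and 0.026 over all genes.

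Both day 7 calls were lost when certain single hearts were left out. Npas2 no longer passed without sham heart 4 (log2 fold change 0.99, edgeR adjusted p = 0.0521) or without day 7 AMI heart 1 (0.74, adjusted p = 0.0824). Per1 no longer passed without sham heart 3 or 4 or day 7 AMI heart 1, 2 or 4, where its log2 fold change was −0.68 to −1.05 and its adjusted p 0.0546 to 0.165, nor with DESeq2 on all 12 hearts (adjusted p = 0.0721). Without day 7 AMI heart 3, in contrast, 4 of the 10 genes were lower than in sham hearts, among them Per2 (log2 fold change −1.07, adjusted p = 0.00868), Nr1d1 (−0.98, adjusted p = 0.0286) and Nr1d2 (−1.01, adjusted p = 0.0156). In that fit 4207 of all 15517 genes tested were lower. Without day 7 AMI heart 1, Cry1 was lower (−0.40, adjusted p = 0.0244). On the TPM scale, with limma, Npas2 and Clock were higher and none was lower. With pseudocount 1 on that scale, 9423 of all 15306 genes were higher and 1023 lower. The median log2 fold change of all genes was 0.437 there.

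Between the 2 infarcted groups, Npas2 and Arntl were higher and Per2 lower on day 7 than on day 1. Npas2 differed 2.94-fold (log2 fold change 1.56, SE 0.38, edgeR adjusted p = 0.00377), with no overlap of hearts (exact permutation p = 0.0286). Arntl differed 2.82-fold (1.49, SE 0.56, adjusted p = 0.0407) and Per2 was at 0.550 of its day 1 level (−0.86, SE 0.33, adjusted p = 0.0417), both with overlapping hearts. Neither passed the exact permutation test (p = 0.114 for Arntl and 0.0571 for Per2). These 3 of 10 genes compare with 47% of all genes called, and the 1 of 10 without overlap with 44.5% of all genes. With a 2-fold change required, 2 were higher (Npas2 and Arntl) and 0 lower, against 8.55% and 2.69% of all genes. The Npas2 call held without any single heart (largest adjusted p 0.0146), though not with limma on TPM values (adjusted p = 0.0779). Arntl no longer passed without day 1 AMI heart 1 or 3 or day 7 AMI heart 1 or 4 (log2 fold change 0.95 to 1.44, adjusted p 0.075 to 0.171), nor with DESeq2 on all 12 hearts (adjusted p = 0.066). Per2 no longer passed without day 1 AMI heart 1, 2 or 3 or day 7 AMI heart 1, 2 or 4 (−0.67 to −0.87, adjusted p 0.0672 to 0.11). Cry1 was lower without day 7 AMI heart 1 (−0.58, adjusted p = 0.00413).

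**Figure D2:**
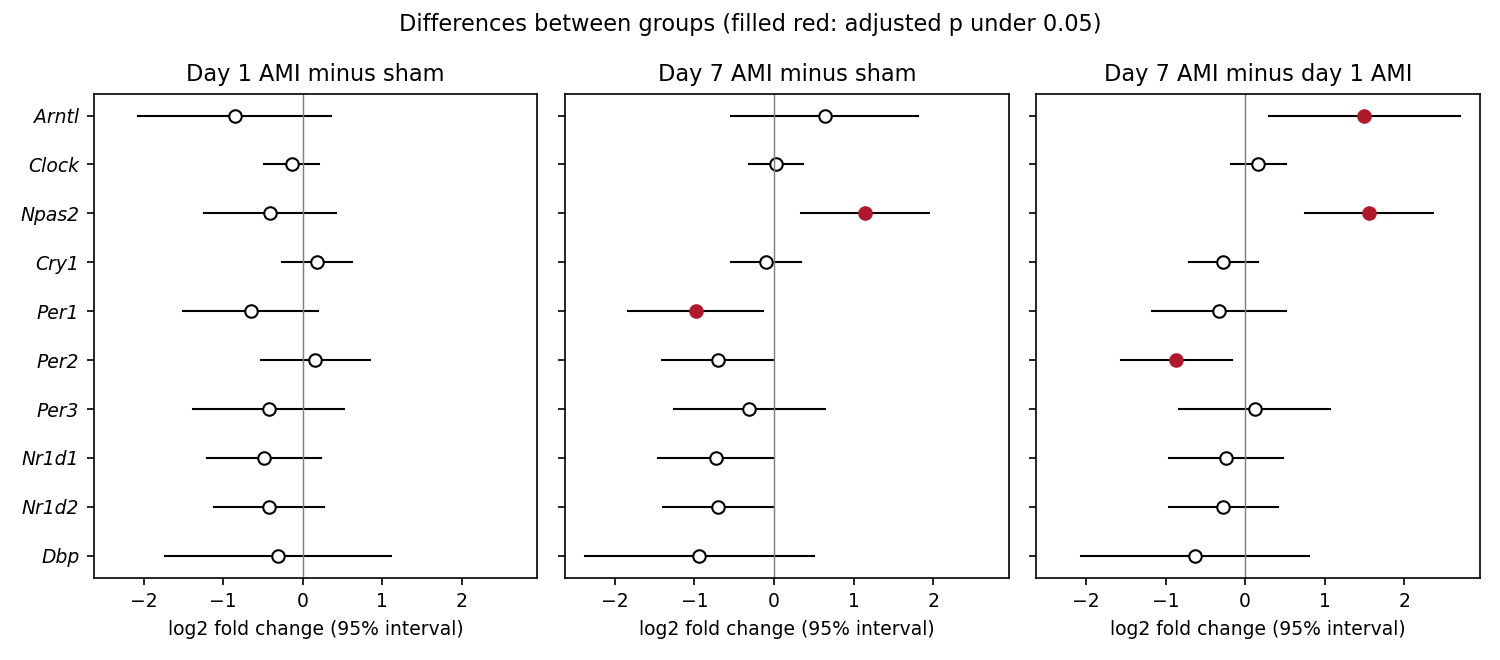
Log2 fold change of each clock gene in the 3 comparisons, from the edgeR fit of 12 hearts, with 95% intervals as lines. Red points have an adjusted p under 0.05: none on day 1 against sham, Npas2 and Per1 on day 7 against sham, and Arntl, Npas2 and Per2 on day 7 against day 1.

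Hearts of the same group differed more in these genes than in most others. The SD of log2 CPM within groups was 1.39 for Dbp, the 54th highest of 15306 genes, and 1.01 for Arntl, the 127th highest. It was 0.819 for Per3, 0.668 for Per1, 0.630 for Nr1d1, 0.628 for Npas2, 0.603 for Nr1d2 and 0.556 for Per2, each above 91.3% of all genes. Cry1 and Clock were the steadiest, at 0.317 and 0.265, and still above the all-gene median of 0.197. Among the genes outside the set, Ciart, an E-box repressor, had an SD of 1.09. Differences within groups made up 44.3% of the variance over 12 hearts for Npas2 and 92.6% for Per3, the ends of the range of the 10 genes, against a median of 31.3% over all genes.

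These differences between hearts of a group were not independent from gene to gene. Each value was expressed as its deviation from the group mean in log2 CPM, and the deviations of the 12 hearts were correlated for all 45 pairs of the 10 genes. All 21 pairs within an arm correlated positively and all 24 pairs across arms negatively. With an exact permutation test that shuffled hearts within groups in all 13824 orders, 25 of the 45 pairs had an adjusted p under 0.05 over the 45 pairs, 10 within an arm and 15 across arms, and 27 an unadjusted p under 0.05. The 45 pairs share 10 genes, so they are not independent, and the share of other gene pairs that would pass is not given here. The 2 hearts farthest from the median log2 CPM of the first gene of a pair were then left out. They were picked over all 12 hearts and not by deviation from the group mean. Of the 45 pairs, 41 then kept the sign of their arms. The 4 exceptions were the pairs of Per1 with Per3, Nr1d1, Nr1d2 and Dbp, with r between −0.24 and −0.0064.

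**Figure D3:**
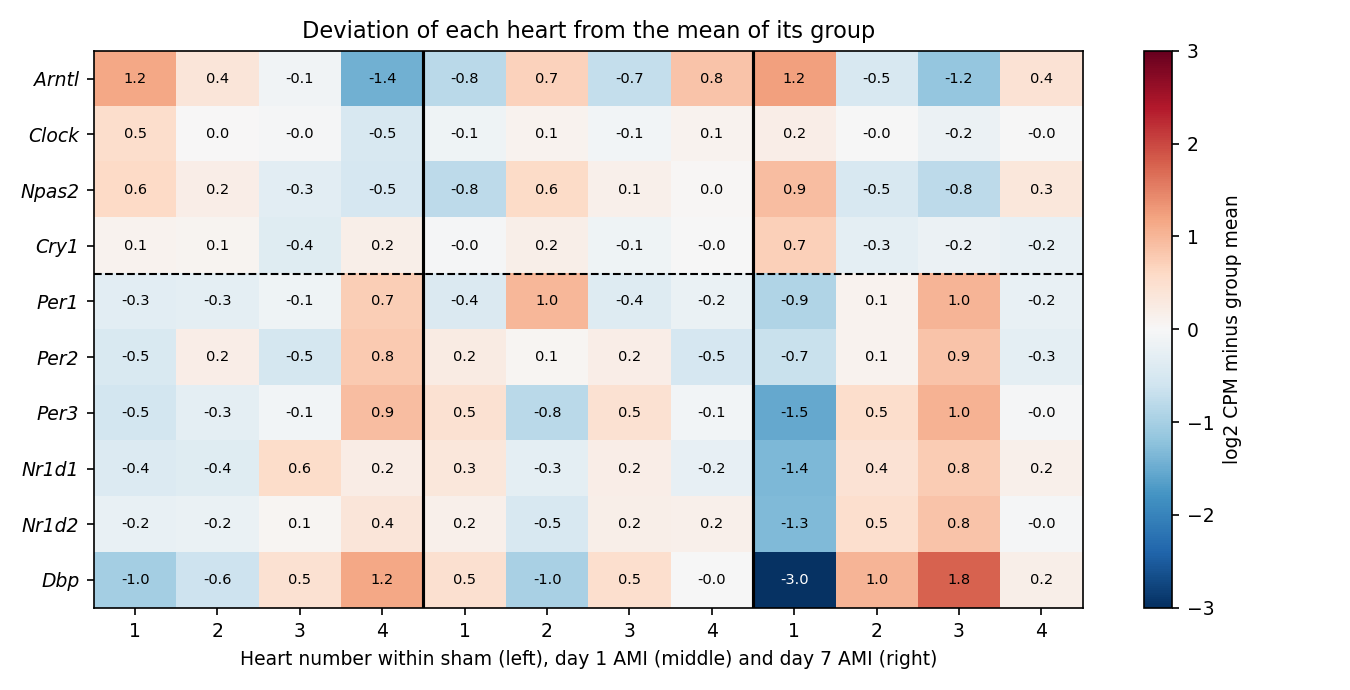
Deviation of each heart from its group mean, in log2 CPM, for the 10 clock genes (rows) and 12 hearts (columns, 4 per group); the dashed line separates the Arntl arm above from the Dbp arm below. Sham heart 4 and day 7 AMI heart 3 are low in Arntl and high in Dbp, and day 7 AMI heart 1 is above its group mean in all 4 rows of the Arntl arm and below it in all 6 rows of the Dbp arm.

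Arntl moved with its partners Clock (r = 0.87, rho = 0.95, exact p = 0.000868, adjusted p = 0.0038) and Npas2 (r = 0.86, rho = 0.87, exact p = 0.00152, adjusted p = 0.00427). Without the 2 hearts farthest from its median, r was 0.87 and 0.81. Against Per3, Arntl had r = −0.91 and rho = −0.88 (exact p = 0.000362, adjusted p = 0.00271), and against Dbp r = −0.84 and rho = −0.93 (exact p = 0.000289, adjusted p = 0.0026). Leaving out the 2 hearts gave −0.92 and −0.91. Within the Dbp arm, Dbp had r = 0.98 with Nr1d2 (rho = 0.94, exact p = 0.000217, adjusted p = 0.0026, r = 0.92 without 2 hearts) and r = 0.97 with Per3 (rho = 0.97, exact p = 0.000145, adjusted p = 0.0026, r = 0.93 without 2 hearts). These were the 2 highest r of the 45 pairs.

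Per1 and Cry1 were the loosest. Of the 9 pairs that contain Per1 none passed, and of the 9 that contain Cry1 1 did, that with Nr1d1 (r = −0.89, rho = −0.76, exact p = 0.0199, adjusted p = 0.0358, r = −0.90 without 2 hearts). The 2 hearts left out for this pair were day 7 AMI hearts 2 and 4. Day 7 AMI heart 1 stayed in, with deviations of 0.71 in Cry1 and −1.35 in Nr1d1, so this r does not show the pair without it. Per1 stood highest in day 1 AMI heart 2, the heart of that group with the least Dbp, Nr1d2 and Per3. Its correlation with Arntl was −0.46 over 12 hearts (rho = −0.38, exact p = 0.183, adjusted p = 0.223) and −0.78 without that heart (adjusted p = 0.0203). Cry1 deviated mainly in sham heart 3, which was low, and in day 7 AMI heart 1, which was high.

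A single heart also carried part of the wider pattern. Without day 7 AMI heart 1, 20 of the 45 pairs passed and 43 had the sign of their arms. Over all 12 ways of leaving out 1 heart the counts ranged from 20 to 31 and from 43 to 45. On the log2(TPM + 1) scale Arntl no longer passed against Npas2 (r = 0.72, adjusted p = 0.0521) or Per2 (r = −0.70, adjusted p = 0.0544).

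**Figure D4:**
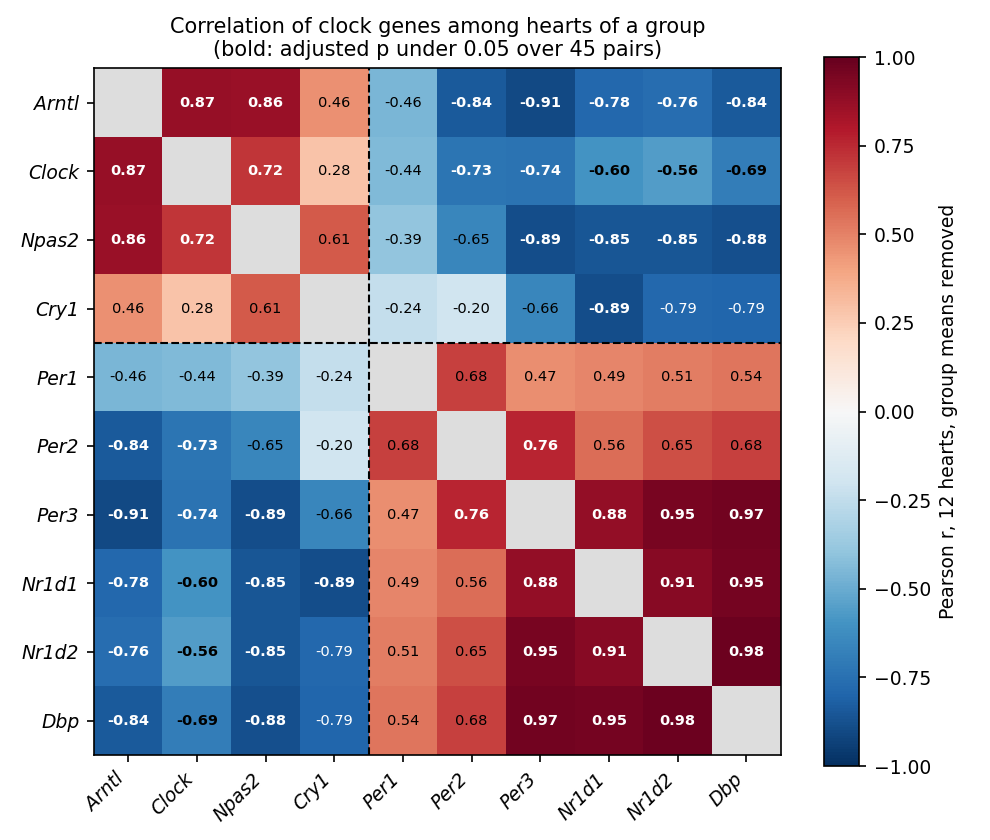
Pearson r between the within-group deviations of each pair of clock genes over 12 hearts; bold figures have an adjusted p under 0.05 over 45 pairs. The 2 blocks within arms are positive and the 2 blocks across arms negative, and the rows of Per1 and Cry1 are the palest.

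Markers of other cells moved with the same deviations. Over the 12 hearts Arntl correlated with the mean log2 CPM of 8 macrophage markers (r = 0.85, rho = 0.79, exact p = 0.00434, adjusted p = 0.0174 over 16 relations, r = 0.86 without 2 hearts), with that of 7 fibroblast markers (r = 0.84, rho = 0.83, exact p = 0.00376, adjusted p = 0.0174, r = 0.76) and with that of 8 leukocyte markers (r = 0.79, rho = 0.68, exact p = 0.0132, adjusted p = 0.0353, r = 0.81). Dbp had r of −0.83, −0.82 and −0.77 with the same lists (exact p = 0.00145, 0.00195 and 0.00637; adjusted p = 0.0156, 0.0156 and 0.0204; rho = −0.90, −0.82 and −0.79; r = −0.89, −0.71 and −0.91 without 2 hearts). By rank, the relation of Arntl with leukocyte markers had an adjusted p of 0.0949 in the same permutation test. Neutrophil markers had r of 0.61 with Arntl (adjusted p = 0.167, r = 0.77 without 2 hearts) and cardiomyocyte markers −0.38 (adjusted p = 0.365, r = −0.40). With Dbp these 2 lists had r of −0.42 and 0.37 (adjusted p = 0.289 and 0.365, r = −0.79 and 0.64 without 2 hearts). Endothelial, erythroid and atrial markers had r of −0.086, 0.44 and −0.55 with Arntl (adjusted p = 0.820, 0.358 and 0.236), and −0.36, 0.43 and −0.73 without 2 hearts. No marker of these lists was at 0 in any heart except Retnlg, of neutrophils, in 1 heart. The summed CPM of the macrophage list was 286 to 443 in the sham group, 523 to 738 on day 1 and 800 to 1219 on day 7. That of the fibroblast list was 1040 to 1282, 1683 to 2312 and 7965 to 16255, and that of the leukocyte list 78.6 to 138, 292 to 425 and 298 to 488. Their part in the clock gene values was not tested.

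When all genes were ranked by their r with Arntl, some clock genes stood near the ends and others did not. Over 15305 genes the median absolute r with Arntl was 0.300, and 1.503% had an absolute r of 0.8 or more. Of the 9 other members 5 did, and of 20 further genes tied to the clock 7 did. Cry2, the second cryptochrome, had the most negative r of all genes (−0.94). Tef, a PAR bZIP relative of DBP, ranked 3rd from the negative end (−0.93), Ciart 6th (−0.91), Per3 8th, Hlf, the third PAR bZIP factor, 21st (−0.88), Bhlhe41, an E-box repressor, 28th (−0.87), Rora, which activates through ROREs, 30th (−0.86), Dbp 40th and Per2 48th. At the positive end Clock ranked 34th and Npas2 46th. Nfil3, which competes with PAR bZIP factors for D-boxes, had r = 0.75 and ranked 289th. Cry1 (0.46) ranked only 2305th from the positive end and Per1 (−0.46) 1834th from the negative end. Among the further genes, Arntl2 (0.13) and Nampt (−0.17), for example, lay within the median absolute r of all genes. Outside the 10 genes, the 5 with the most positive r and a mean of at least 1 CPM were Spon2 (0.96), Ahdc1 (0.96), Hcn4 (0.95), Cmtm6 (0.94) and Adam17 (0.94), none of them a core clock gene. The 5 most negative were Cry2, Cped1 (−0.93), Tef, Gstt2 (−0.92) and Usp54 (−0.91). These ranks describe 12 hearts and carry no test.

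Promoter windows were found for 15 of the 20 further genes, of which 4 held an E-box (Ciart, Klf15, Bhlhe41 and Tef), 1 a RORE (Nfil3, on the opposite strand) and 0 a D-box. Ciart and Klf15 each held the E-box 3 times, with r of −0.91 and −0.48 with Arntl. Ciart and Nfil3, picked after their r was seen, are shown to set beside the members above.
Ciart, 3 E-boxes, chr3:95882246-95882365 (−), upstream of the gene but for 6 bases of its first exon: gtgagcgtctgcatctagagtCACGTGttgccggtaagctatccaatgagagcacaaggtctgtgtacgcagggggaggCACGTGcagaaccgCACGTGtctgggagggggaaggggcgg
Nfil3, RORE, chr13:52981033-52981062 (−), within an exon of Nfil3: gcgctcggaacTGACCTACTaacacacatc
Ciart had 1.36, 3.74, 6.01 and 17.6 CPM in sham hearts 1 to 4, highest in the heart with the least Arntl and lowest in the one with the most, and 1.39 CPM in day 7 AMI heart 1. Nfil3 had 28.1 CPM in day 7 AMI heart 1 and 6.20 to 11.8 CPM in the other 3 day 7 AMI hearts.

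**Figure D5:**
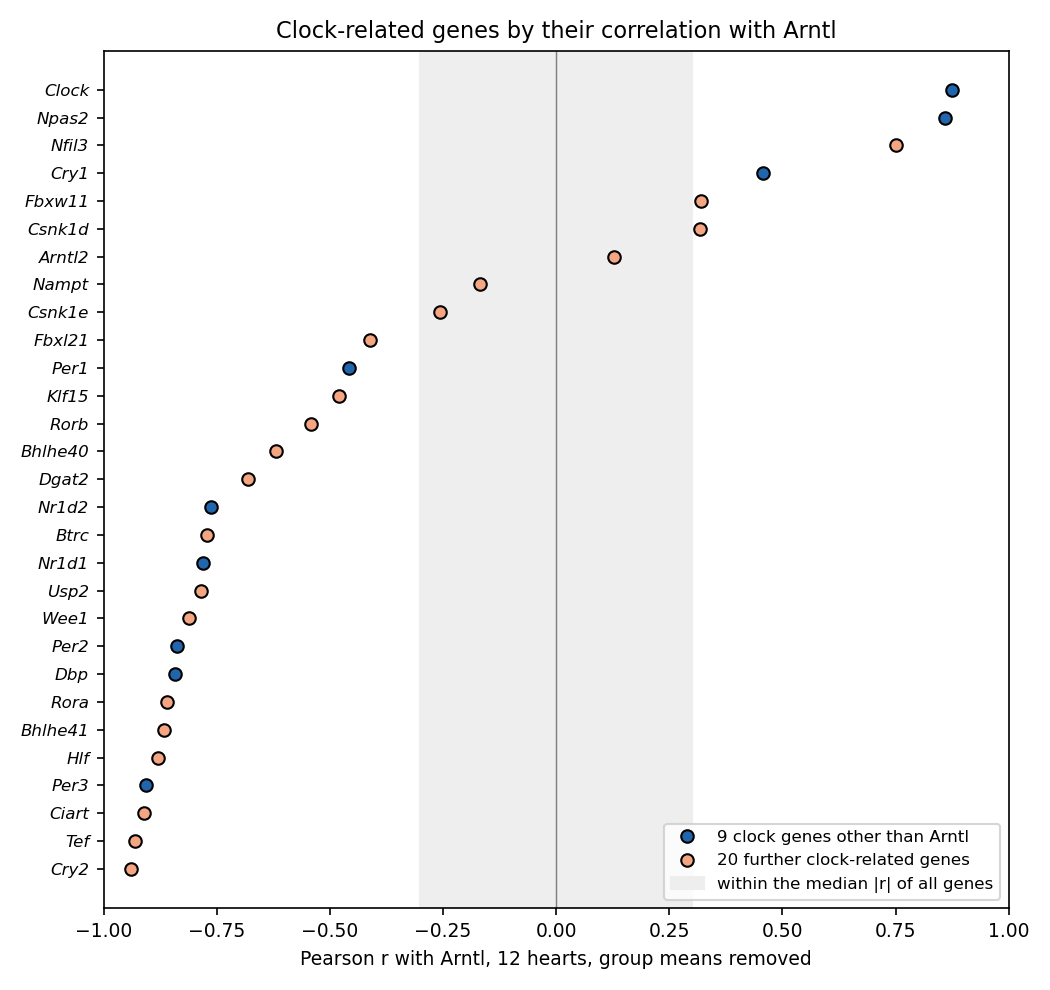
Pearson r with Arntl of the other 9 clock genes (blue) and 20 further clock-related genes (orange), from within-group deviations of 12 hearts; the grey band spans the median absolute r of all genes, 0.300. Most points lie at the negative end, with Cry2 lowest at −0.94 and Clock highest at 0.87.

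The 20 further genes were counted in the group comparisons as well. On day 1, 2 were higher than in sham hearts (Fbxw11 and Wee1) and 4 lower (Rora, Klf15, Nampt and Dgat2), against 22% and 19.9% of all genes. On day 7, 2 were higher than in sham (Arntl2 and Fbxl21) and 7 lower (Cry2, Tef, Hlf, Usp2, Klf15, Nampt and Dgat2), against 30.9% and 28.4% of all genes. From day 1 to day 7, 1 was higher (Arntl2) and 5 lower (Cry2, Wee1, Usp2, Klf15 and Dgat2), against 24.2% and 22.8%. With limma on log2(TPM + 1) the splits were 5 higher and 2 lower, 9 and 4, and 3 and 1, on a scale where the median log2 fold change of all genes was 0.233, 0.437 and 0.184. In these 3 comparisons 6171, 9423 and 5402 of all 15306 genes were higher and 737, 1023 and 1302 lower. Median log2 fold changes of the 20 were −0.26, −0.026 and −0.17, beside −0.012, 0.026 and 0.021 over all genes.

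Of the 20, 5 were lower by 2-fold or more on day 7 than in sham, Klf15, Dgat2, Hlf, Nampt and Usp2, against 5.88% of all genes. By the same rule 1 was higher (Fbxl21), against 15.3%. On day 1 against sham 1 was lower and 0 higher, against 2.98% and 7.79% of all genes. On day 7 against day 1 these were 1 and 0, against 2.69% and 8.55%. Klf15, a regulator of cardiac lipid and amino acid use, had 53.0 to 77.8 CPM in sham, 32.8 to 43.6 CPM in day 1 AMI and 13.9 to 25.7 CPM in day 7 AMI hearts, with no overlap between groups in CPM. In TPM sham (26.51 to 43.15) and day 1 AMI hearts (21.15 to 29.32) overlapped in Klf15. Its day 1 call against sham was lost with limma on log2(TPM + 1) (−0.42, adjusted p = 0.0576). Its log2 fold change on day 7 was −1.81 against sham (SE 0.17, edgeR adjusted p = 9.72e-07) and −1.07 against day 1 (SE 0.17, adjusted p = 0.000175). Dgat2, which makes triglyceride, was lower than in sham on day 1 (−1.10, SE 0.17, adjusted p = 0.000232) and on day 7 (−1.53, SE 0.17, adjusted p = 4.16e-06). Nampt, of NAD salvage, fell by 1.18 on the log2 scale on day 7 (SE 0.13, adjusted p = 3.44e-06), Usp2, a deubiquitinase, by 1.09 (SE 0.21, adjusted p = 0.000431) and Hlf by 1.22 (SE 0.35, adjusted p = 0.00736). The call of Usp2 was lost with limma on log2(TPM + 1) (−0.46, adjusted p = 0.0951) and on log2(TPM + 0.1) (−0.48, adjusted p = 0.0932). Unlike the members, Klf15, Nampt and Dgat2 had only 9.03%, 10.6% and 12.5% of their variance within groups. Fbxl21, a ligase for CRY, was read at no more than 1.00 CPM in any heart, and its call (1.32, SE 0.51, adjusted p = 0.0367) was lost without sham heart 1 or 2 or day 7 AMI heart 2, 3 or 4 (0.92 to 1.35, adjusted p 0.0543 to 0.0946).

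Because Arntl differed so widely within groups, the group comparisons were repeated with the log2 CPM of Arntl as a covariate, an alternative chosen after the data had been seen, in which the other 9 genes were compared at equal Arntl. Arntl itself shifted between groups (log2 fold change −0.86 and 0.64 on day 1 and day 7 against sham, 1.49 between them) and was not centred within groups. The adjusted values therefore also carry this shift and do not show how the genes' own levels differed. On day 1 Per3 (log2 fold change −0.92, edgeR adjusted p = 0.00435), Nr1d1 (−0.87, adjusted p = 0.0122) and Nr1d2 (−0.74, adjusted p = 0.0241) were then lower than in sham hearts. In the same comparison 3115 of all 15306 genes were lower and 3489 higher. On day 7 Npas2 remained higher than in sham (0.72, adjusted p = 0.0157) and Per1 no longer passed (−0.83, adjusted p = 0.0707). From day 1 to day 7 Per3 was higher (0.95, adjusted p = 0.00585), and neither Npas2 (0.67, adjusted p = 0.0585) nor Per2 (−0.30, adjusted p = 0.296) passed. Without the covariate the log2 fold change of Per3 was 0.12 (edgeR adjusted p = 0.842).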

How the data were processed

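Total RNA of whole hearts had been sequenced as paired-end Illumina libraries. Per the labels and the study's methods, the authors trimmed reads with Cutadapt, aligned them to mm10 with STAR 2.4.0j against an Ensembl GRCm38 annotation and computed TPM with RSEM. The authors deposited raw counts per gene and, separately, TPM values to 2 decimals; the program that gave the counts and its strand setting are not given in the sources used here. From the deposited counts, which total 23204551 to 32166517 per heart, genes were filtered with filterByExpr by group and scaled by TMM, and the 12 hearts were fitted together with the quasi-likelihood test of edgeR 4.0.16 (R 4.3.3), with Benjamini-Hochberg adjustment over 15306 genes. A gene was called at an adjusted p under 0.05 and, by the study's rule for differentially expressed genes, also at a fold change of 2 or greater. Log2 CPM used a prior count of 2. Single genes were also compared by an exact two-sided permutation test of 4 against 4 hearts. Correlations used deviations from group means and an exact two-sided permutation within groups. The code of the main fit and of the permutation test was run on simulated data. The simulated spread was the same for all genes, so this checked the code and not the power for the clock genes. With 4 hearts per group the intervals reflect differences between hearts, since the 10 genes had 36 to 4988 counts per heart.

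Named in the text are the 10 genes, those of 20 further clock genes that passed in a comparison or stood near Arntl, with values for those past a 2-fold change, and the 5 genes most like and most unlike Arntl. Some genes of the clock list are not reported here and were left out of its counts. Members, lists and tests were chosen with earlier results of these data known. The alternatives were DESeq2 1.42.0 on all hearts or on 2 groups, edgeR on 2 groups, RLE factors, no mitochondrial genes, no filter, limma 3.58.1 on log2 of the deposited TPM with pseudocounts 1 and 0.1, the replicate number as a block, each heart left out, and Arntl as a covariate. Promoters came from RefSeq (GRCm38.p6) and gene positions from GENCODE M21 (GRCm38).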

Additional observations from a re-analysis of the deposited data

Results flagged for a closer look

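The 10 clock genes and 20 further clock genes gave 90 groups of 4 hearts. In 9 of them 1 heart stood apart from the other 3 by Dixon's test at its 95% limit. For independent groups that limit corresponds to about 1 in 20. These groups were not independent, since the genes moved together among the same hearts, and the share over all genes is not given here. The count is therefore a description, and no excess over chance can be read from it. Values are log2 CPM.

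Day 1 AMI heart 2 stood apart in 3 genes. Per1 was high there (6.19, the other 3 hearts 4.75 to 4.99), Nfil3 was high (4.603, the others 3.82 to 3.94) and Nr1d2 was low (6.05, the others 6.69 to 6.72). Sham heart 4 was high in Per1 (6.64, the others 5.59 to 5.77) and in Usp2 (7.28, the others 6.81 to 6.88). Cry1 was low in sham heart 3 (2.86, the others 3.32 to 3.39) and high in day 7 AMI heart 1 (3.78, the others 2.78 to 2.89). Day 7 AMI heart 3 was high in Nampt (6.78, the others 6.40 to 6.46) and in Dgat2 (7.75, the others 7.39). Neither Arntl nor Dbp, the genes with the widest spread among the 10, was among these 9. The cause of these values was not tested.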

How the results depend on the processing

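Counts of members past an adjusted p of 0.05 were small and moved with most settings; the cause was not tested except where noted. For genes lower on day 1 than in sham, 0 became 3 of the 9 other genes with Arntl as covariate and 1 with DESeq2 on the 2 groups. Of all genes, 3115 of 15306 and 2946 of 17724 were lower in these fits. For day 7 against sham, the 1 gene higher became 2 with limma at either pseudocount, and the 1 at 2-fold or more became 0 with Arntl as covariate. The 1 gene lower became 0 with Arntl as covariate, with both DESeq2 fits and with both limma fits, and 4 without the filter. Those 4 include genes with adjusted p-values just over the threshold. Without the filter 4181 of all 26544 genes were lower. At 2-fold or more, 0 lower became 1 with RLE factors and 1 with the replicate block. For day 7 against day 1, the 2 genes higher became 1 with Arntl as covariate, with both DESeq2 fits, with both limma fits and with the replicate block. At 2-fold or more these 2 became 1 in the same fits but 0 with Arntl as covariate. The 1 gene lower became 0 with Arntl as covariate, DESeq2 on 12 hearts and both limma fits. Of the 20 further genes, the 2 higher on day 7 than in sham became 1 with DESeq2 on the 2 groups and with the replicate block. With limma at either pseudocount they became 5 higher and 2 lower on day 1 against sham (2 and 4), 9 and 4 on day 7 against sham (2 and 7) and 3 and 1 on day 7 against day 1 (1 and 5), the median log2 fold change of all genes on the TPM scale being 0.233, 0.437 and 0.184 with pseudocount 1. Of all 15306 genes, 6171, 9423 and 5402 were higher and 737, 1023 and 1302 lower with that pseudocount.

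With 1 heart left out, members lower on day 1 than in sham numbered 0 to 1 (without day 1 AMI heart 2), at any fold and at 2-fold or more. On day 7 against sham, 0 to 1 were higher at any fold and at 2-fold or more (0 without sham heart 4 or day 7 AMI heart 1), 0 to 4 lower and 0 to 3 lower at 2-fold or more (the most without day 7 AMI heart 3). Without day 7 AMI heart 3, 4207 of all 15517 genes were lower, 1047 of them at 2-fold or more. On day 7 against day 1, 1 to 2 were higher by either rule, 0 to 1 lower and 0 to 1 lower at 2-fold or more. Among the 20 further genes, 1 to 3 were higher on day 1 and 1 to 2 on day 7 than in sham, and 1 to 3 higher and 1 to 6 lower on day 7 than on day 1 (1 without day 1 AMI heart 1).

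No call reversed. Log2 fold changes of the 10 members and of Nampt that passed in neither fit changed sign as follows. On day 1 against sham, with limma at pseudocounts 1 and 0.1, Clock became 0.22 and 0.25, Npas2 0.37 and 0.54, Per2 −0.070 and −0.057, and Dbp 0.15 and 0.16. On day 7 against sham Cry1 became 0.41 and 0.49 and Per3 0.22 and 0.22, and on day 7 against day 1 Nampt became 0.016 and 0.016. With Arntl as covariate, Clock became 0.071, −0.088 and −0.16 in the 3 comparisons, Npas2 0.048 and Per2 −0.15 on day 1 against sham, Per3 0.035 on day 7 against sham, and Nr1d1 0.33, Nr1d2 0.19 and Dbp 0.36 on day 7 against day 1. Among the 10 members, with 1 heart left out, the ranges that crossed 0 were −0.28 to 0.059 (Clock, day 1 against sham), −0.12 to 0.22 (Clock, day 7 against sham), −0.40 to 0.0021 (Cry1, day 7 against sham), −0.77 to 0.14 (Per1, day 7 against day 1), −0.0045 to 0.48 (Per2, day 1 against sham), −0.70 to 0.11 and −0.27 to 0.43 (Per3, day 7 against sham and against day 1), −0.49 to 0.046 (Nr1d1, day 7 against day 1), −0.58 to 0.012 (Nr1d2, day 7 against day 1) and −0.57 to 0.19 (Dbp, day 1 against sham).

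Leaving out mitochondrial genes or fitting only the groups compared moved no count by more than 1.5 times. Hearts with the same replicate number came from different mice, and their deviations over all genes correlated by −0.24 to 0.23, with 4 of 12 pairs over 0.1. Between groups, hearts numbered 3 had 0.12, 0.13 and 0.15, and hearts numbered 1 had −0.069, −0.093 and −0.054. The labels do not say what the numbers stand for, and whether hearts of 1 number shared a batch was not tested. The replicate block otherwise lost the calls of Arntl on day 7 against day 1 (adjusted p = 0.064) and of Fbxl21 on day 7 against sham (adjusted p = 0.067). For the 10 members, within-group SDs on the TPM and RLE scales and the number of pairs with the sign of their arms on those scales and with ranks moved little. Clock time at collection is not known and 4 hearts a group limit what can be seen.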
